A study of Mus musculus with 6 samples.

Results

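The 10 genes described here act in the synthesis and sensing of prostaglandins and leukotrienes: Pla2g4a, Ptgs1, Ptgs2, Ptges, Ptges2, Ptger2, Ptger4, Alox5, Alox5ap and Ltc4s. They were matched by gene symbol among 56092 symbols in the deposited tables, and 9 of the 10 were among the 13528 genes with enough reads to test. The set was selected on the measured fold change between these same groups, with Ptgs2 among the largest falls, so the values of these genes in this comparison are given as a description without a test.

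RNA was sequenced from RAW264.7 cells, a mouse macrophage-like line, in 2 groups of 3 libraries. The shNC group carried the lentiviral control and the shTrem2 group a lentiviral short hairpin RNA against Trem2, the receptor whose loss the study examined. Both groups had received 20 ng/mL IL-4 for 24 h, which polarizes macrophages towards an Arg1-expressing state, and then debris of renal tubular epithelial cells, so no library lacked IL-4 or debris. Both were stably transduced lines, and the vector also carried GFP. Knockdown of Trem2 and other differences between the lines therefore cannot be told apart. The control is called an empty vector in the sample labels but a hairpin in the study's methods. Neither source says which Trem2 hairpin these libraries carried. Whether the 3 libraries of a group came from separate cultures was not stated, so p-values measure only the spread between these samples.

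Macrophages release arachidonic acid from membrane phospholipids with cytosolic phospholipase A2. Cyclooxygenases turn it into prostaglandin H2, from which terminal synthases make prostaglandin E2 and the other prostanoids, and 5-lipoxygenase with its activating protein turns it into leukotrienes. Prostaglandin E2 acts back on macrophages mainly through the receptors EP2 and EP4, which raise cyclic AMP.

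Total estimated counts ranged from 16054486 to 18290532 in shNC and from 19545744 to 19835186 in shTrem2. Trem2 was measured at 114, 122 and 144 CPM (counts scaled to library size with TMM factors) in shNC and at 64.7, 63.1 and 80.1 CPM in shTrem2, a log2 fold change of -0.87 (SE 0.0939, edgeR quasi-likelihood test, adjusted p = 3.39e-06). In FPKM, which also divides by transcript length, its mean went from 178 ± 28.5 to 41.7 ± 4.14 (SD, n = 3), a larger difference than in CPM. Of 10 macrophage markers 9 were tested, 4 were DEGs with a higher and 1 with a lower level in shTrem2, their summed level was 5430 to 6420 CPM in shNC and 10500 to 11900 CPM in shTrem2, and Mertk had at most 3 counts in every library. Most of the difference in that sum was the lysozyme gene Lyz2, with a mean of 2800 CPM in shNC and 7360 CPM in shTrem2, whereas Itgam was lower (log2 fold change -0.78) and Adgre1 and Cd68 were within 1.5-fold (-0.56 and 0.12). Of 14 tubular epithelial markers 7, including Epcam and Cdh1, were at 0 in all libraries and 11 had at most 3 counts in every library. Their summed level was 0.665 to 1.24 CPM in shNC and 2.11 to 2.97 CPM in shTrem2, and the only one tested, the water channel Aqp1, had 5 to 12 counts in shNC and 38 to 50 in shTrem2. The part of these marker differences in the results below was not tested.

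The promoters of the set's cyclooxygenases and prostaglandin E synthases are shown because each pair holds 1 gene with a large fall and 1 without. Each is 1 RefSeq window on GRCm38.p6, from 250 bases before to 50 bases after the annotated start, written 5′ to 3′ on the gene's strand, with the matches to the searched motifs in capitals. Ptgs2 lies at chr1:150099781-150100080 on the plus strand, Ptgs1 at chr2:36230176-36230475 on the plus strand, Ptges at chr2:30903248-30903547 on the minus strand and Ptges2 at chr2:32395640-32395939 on the plus strand.
Ptgs2: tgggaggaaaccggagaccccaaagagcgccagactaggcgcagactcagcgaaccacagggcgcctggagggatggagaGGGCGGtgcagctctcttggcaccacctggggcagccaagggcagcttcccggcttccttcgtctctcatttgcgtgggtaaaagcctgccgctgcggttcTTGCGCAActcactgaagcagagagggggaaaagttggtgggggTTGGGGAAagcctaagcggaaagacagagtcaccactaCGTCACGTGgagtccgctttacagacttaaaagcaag
Ptgs1: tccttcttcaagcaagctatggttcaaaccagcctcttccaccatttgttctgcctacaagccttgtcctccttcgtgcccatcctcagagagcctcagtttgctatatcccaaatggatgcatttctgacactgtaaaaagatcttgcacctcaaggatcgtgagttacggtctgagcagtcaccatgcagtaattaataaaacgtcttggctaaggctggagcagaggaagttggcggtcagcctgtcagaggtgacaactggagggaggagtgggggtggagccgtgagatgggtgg
Ptges: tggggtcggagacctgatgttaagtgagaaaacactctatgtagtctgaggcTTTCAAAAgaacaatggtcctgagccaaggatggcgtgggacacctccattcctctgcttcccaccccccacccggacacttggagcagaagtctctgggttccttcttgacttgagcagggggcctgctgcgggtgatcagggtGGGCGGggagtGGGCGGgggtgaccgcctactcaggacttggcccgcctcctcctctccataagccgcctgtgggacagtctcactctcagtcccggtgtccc
Ptges2: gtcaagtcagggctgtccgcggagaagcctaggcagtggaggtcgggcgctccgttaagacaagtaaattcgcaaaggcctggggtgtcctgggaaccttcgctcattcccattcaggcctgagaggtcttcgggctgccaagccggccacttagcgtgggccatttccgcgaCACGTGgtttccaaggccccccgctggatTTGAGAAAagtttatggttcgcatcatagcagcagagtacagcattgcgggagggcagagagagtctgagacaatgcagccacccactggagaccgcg

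Both strands were searched for 7 motifs: the TATA box (TATAAA), the core of the cyclic AMP response element (TGACG), the E-box (CACGTG), the AP-1 site (TGANTCA), a C/EBP site (TTNNGNAA), the GC box (GGGCGG) and the NF-kB consensus. The Ptgs2 window held a GC box, a C/EBP site at each of 2 positions, and a TGACG core that overlapped an E-box between 13 and 21 bases past the start. The TGACG core occurred in 20.8% of the 32851 RefSeq windows of this length, the E-box in 7.15%, the C/EBP site in 40.7% and the GC box in 35.7%. The Ptges window held 2 GC boxes and a C/EBP site, and the Ptges2 window an E-box and a C/EBP site. The Ptgs1 window held none of the 7, which says only that these letters are not in it. Ptgs2 had 16 CpG dinucleotides in its window and Ptgs1 had 6, whereas Ptges had 10 and Ptges2 had 18. The median over all windows was 7. A match to a motif is a description of the letters and not a binding site.

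At the first step, Pla2g4a, the cytosolic phospholipase A2 that frees arachidonic acid, had 245, 236 and 244 CPM in shNC and 242, 253 and 269 CPM in shTrem2. The groups overlapped, and the log2 fold change was 0.07 (SE 0.0482). In bulk RNA such as this, fewer cells of a kind and less RNA per cell cannot be told apart. Its level per length was 95.7 ± 1.93 FPKM in shNC and 98.5 ± 5.59 FPKM in shTrem2 (SD, n = 3).

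At the cyclooxygenase step, Ptgs2, the inducible enzyme COX-2, had 298, 278 and 177 CPM in shNC and 23.1, 22.1 and 21.4 CPM in shTrem2. All shTrem2 libraries lay far below all shNC libraries, and the lowest shNC library was 7.68 times the highest shTrem2 library. The log2 fold change was -3.50 (SE 0.158), an 11.3-fold lower level. It ranked 25 among the 1671 genes that fell by the study's criteria of an FDR under 0.05 and a fold change over 1.5, here called DEGs, and 4 among the 841 of them whose average log2 CPM reached 3. The shNC libraries spread more for Ptgs2 than for most genes, with an SD of 0.407 in log2 CPM against a median of 0.0912 over all genes tested, and shNC replicate 3 was the low one. Ptgs1, the constitutive enzyme COX-1, had 3.72, 3.44 and 2.86 CPM in shNC and 3.60, 6.52 and 3.34 CPM in shTrem2. These groups overlapped, with shTrem2 replicate 2 the high library, and the log2 fold change was 0.43 (SE 0.255).

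Since the 2 cyclooxygenases carry out the same reaction, their levels were also compared per length. Ptgs2 made up 97.4, 98.0 and 96.7% of their summed FPKM in shNC and 76.7, 64.1 and 79.7% in shTrem2. The mean share was 97.4 ± 0.654% and 73.5 ± 8.27% (SD, n = 3). Ptgs2 therefore remained the more abundant of the pair in every shTrem2 library, at 5.26 ± 0.191 FPKM beside 1.96 ± 0.860 FPKM for Ptgs1.

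**Figure D1:**
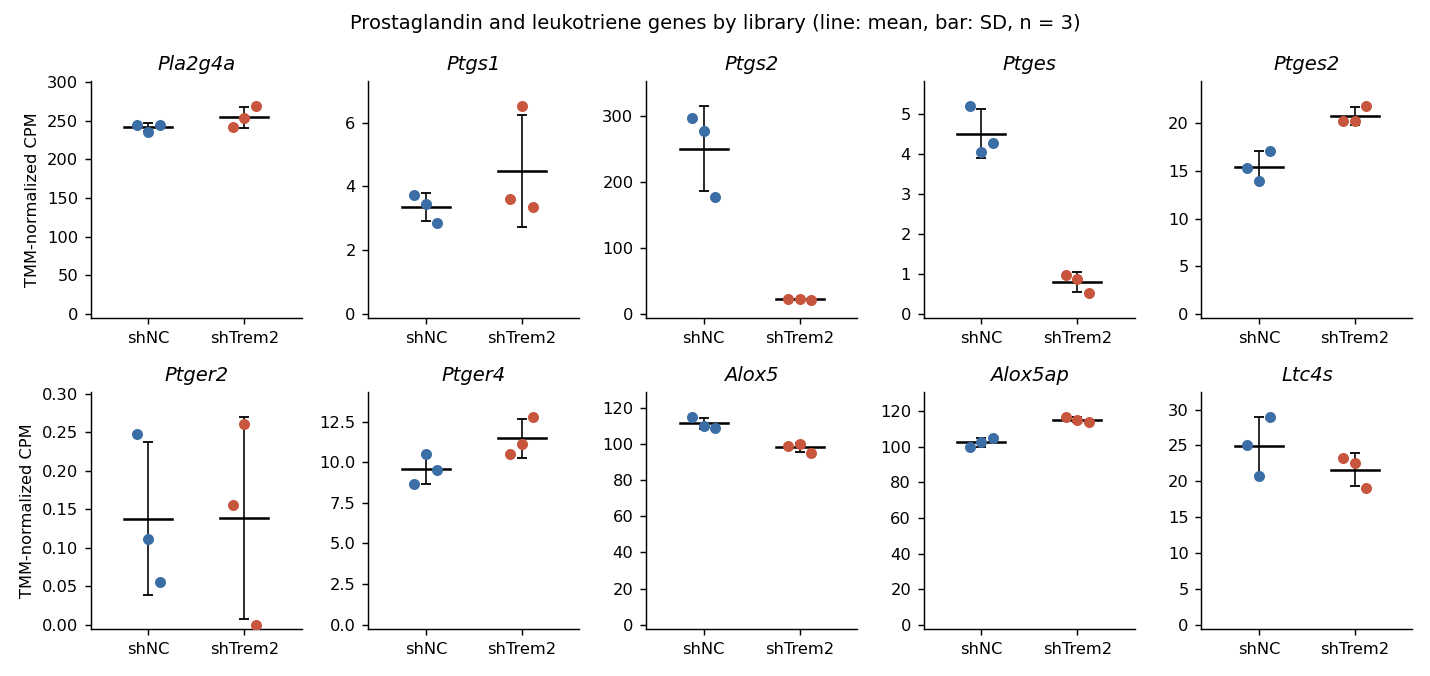
CPM of the 10 genes in each library, 1 panel a gene, each axis from 0; points are libraries, lines the means and bars the SD of 3 libraries. Ptgs2 and Ptges are far lower in all shTrem2 libraries, whereas Pla2g4a, Ptgs1, Ltc4s and Ptger2 overlap between the groups.

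At the prostaglandin E synthase step, Ptges, the inducible microsomal enzyme often coupled to COX-2, had 5.21, 4.05 and 4.29 CPM in shNC and 0.990, 0.887 and 0.515 CPM in shTrem2. The groups did not overlap, and the log2 fold change was -2.49 (SE 0.273), a 5.62-fold lower level. The FPKM values of Ptges did not separate the groups, with 1.58, 2.82 and 1.33 in shNC and 0.71, 0.26 and 2.04 in shTrem2. A length fitted for each transcript row put 1.86 of the 2.04 FPKM of shTrem2 replicate 3 on a row with 4.32 estimated counts. The implied effective length of that row was 117 bases. By the same fit, short rows of 385 and 117 bases added 1.29 and 0.48 of the 2.82 FPKM of shNC replicate 2. The row of 385 bases also added 0.47 of the 0.71 FPKM of shTrem2 replicate 1. Ptges2, a membrane-associated prostaglandin E synthase, had 15.3, 13.9 and 17.1 CPM in shNC and 20.2, 20.2 and 21.8 CPM in shTrem2. All its shTrem2 libraries were above all its shNC libraries, and the log2 fold change was 0.43 (SE 0.0962). Ptges3, a further prostaglandin E synthase gene outside the set, had 255, 258 and 268 CPM in shNC and 300, 287 and 322 CPM in shTrem2. It was not a DEG, with a log2 fold change of 0.22. Its mean level was 156 FPKM in shNC and 178 FPKM in shTrem2, above those of Ptges and Ptges2.

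Of the receptors for prostaglandin E2, Ptger4 (EP4) had 8.69, 10.5 and 9.50 CPM in shNC and 10.5, 11.1 and 12.8 CPM in shTrem2. Its groups were separated only by a margin smaller than the rounding, and the log2 fold change was 0.26 (SE 0.123). Ptger2 (EP2) had 0.248, 0.111 and 0.0549 CPM in shNC and 0.156, 0.261 and 0 CPM in shTrem2. Since 3 counts correspond to 0.153 to 0.189 CPM, Ptger2 was at the limit of detection in both groups and was not tested.

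On the leukotriene branch, Alox5, which encodes 5-lipoxygenase, had 115, 110 and 109 CPM in shNC and 98.9, 100 and 95.1 CPM in shTrem2. All shTrem2 libraries were lower, by a log2 fold change of -0.18 (SE 0.0488). Alox5ap, which encodes the 5-lipoxygenase activating protein FLAP, had 100, 103 and 105 CPM in shNC and 117, 115 and 114 CPM in shTrem2. All shTrem2 libraries were higher, by a log2 fold change of 0.17 (SE 0.0463), but in FPKM the groups overlapped, at 122 ± 3.13 and 124 ± 1.84 (SD, n = 3). Ltc4s, the synthase that joins leukotriene A4 to glutathione, had 25.1, 20.7 and 28.9 CPM in shNC and 23.3, 22.6 and 19.0 CPM in shTrem2. Its groups overlapped, and the log2 fold change was -0.20 (SE 0.115).

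In all, 2 of the 9 tested genes were DEGs, both lower, where 21.8% of all genes tested were DEGs, 12.4% with a lower and 9.46% with a higher level. With no fold threshold, 5 of the 9 had an FDR under 0.05, beside 57.4% of all genes. The other 7 were within 1.5-fold. The libraries of the 2 groups did not overlap for 6 of the 9, where they did not overlap for 63.8% of all genes tested. Of the 9 log2 fold changes 5 were above 0 and 4 below. Because these genes were chosen with this comparison known, nothing is read from these shares.

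Per length, the order in shNC was Alox5ap at 122 FPKM, Pla2g4a at 95.7, Ltc4s at 79.3, Ptgs2 at 61.0, Alox5 at 45.4, Ptges2 at 10.1, Ptger4 at 3.22, Ptges at 1.91, Ptgs1 at 1.59 and Ptger2 at 0.0467 (means of 3 libraries). Ptgs2 overlapped Ltc4s above it and Alox5 below it, and Ptgs1 overlapped Ptges. In shTrem2 the first 3 places were the same genes, and Ptgs2 stood in place 6, at 5.26 FPKM, between Ptges2 at 12.2 and Ptger4 at 3.80. Only Ptgs1 and Ptges overlapped among neighbours there.

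**Figure D2:**
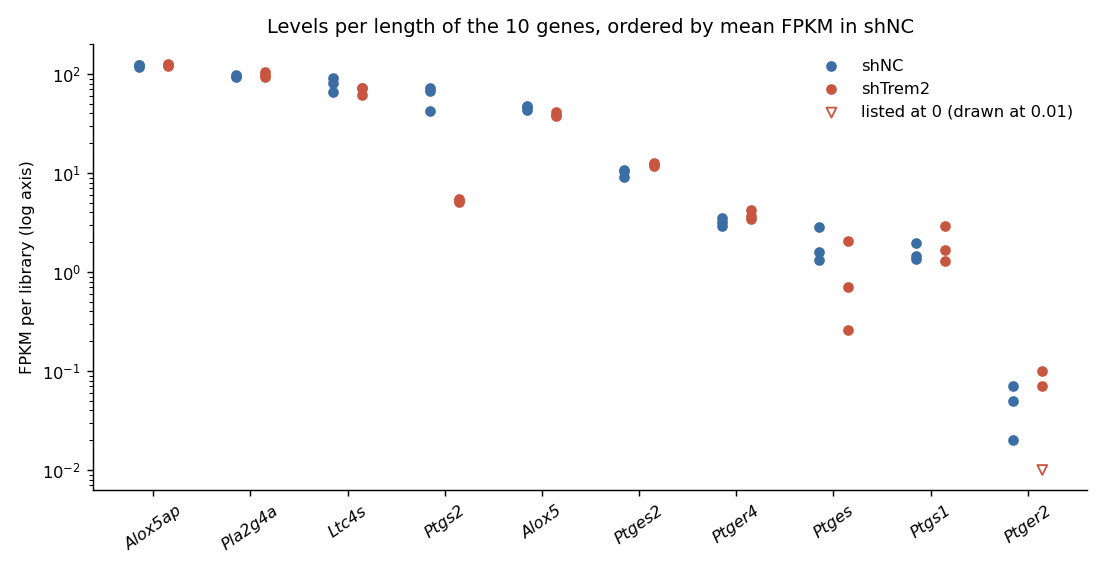
FPKM of the 10 genes in each library on a log axis, ordered by the shNC mean; points are libraries and the open triangle is a library listed at 0. Ptgs2 sits among the highly expressed genes in shNC and between Ptges2 and Ptger4 in shTrem2.

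The other genes of the pathway were taken from 9 lists with 165 genes, of which 116 were tested. There were 15 DEGs with a higher and 18 with a lower level, 28.4% of those tested, beside 21.8% of all genes tested (9.46% higher and 12.4% lower), and the median log2 fold change was -0.01 beside 0.00 over all genes. Adjusted p-values below are from edgeR's quasi-likelihood test over all 13528 genes.

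Among 17 tested genes of arachidonate release and reacylation, 2 rose and 5 fell, with a median log2 fold change of -0.20. The lysosomal phospholipase A2 gene Pla2g15 fell from 57.3, 65.5 and 61.4 CPM to 32.6, 34.7 and 31.0 CPM, by a log2 fold change of -0.91 (adjusted p = 1.16e-07). The calcium-independent phospholipase gene Pla2g6 fell from 38.4, 35.7 and 34.6 CPM to 22.6, 19.7 and 22.2 CPM (adjusted p = 2e-06). The secreted enzyme gene Pla2g5 and the reacylation genes Lpcat2 and Lpcat3 were not DEGs, at -0.20, -0.06 and 0.37. At low levels, Pla2g4b fell, with a log2 fold change of -1.80 (adjusted p = 0.000671), and Pla2g4c and Pla2g2d rose by 1.76 (adjusted p = 0.00394) and 1.59 (adjusted p = 0.00493), with 3 to 54 counts per library. Pla2g4b did not pass the test on log2(FPKM + 1), at -0.45 (limma adjusted p = 0.198).

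Among 9 tested genes listed as other prostanoid synthases, which include Ptges3, 2 rose and 2 fell. Cbr2, a carbonyl reductase, fell from 28.0, 29.5 and 31.5 CPM to 12.2, 12.3 and 9.37 CPM (log2 fold change -1.39, adjusted p = 1.19e-07). Akr1b1, an aldo-keto reductase with prostaglandin F synthase activity, rose from 1230, 1200 and 1120 CPM to 2270, 2290 and 1610 CPM (log2 fold change 0.79, adjusted p = 1.72e-05). Its relative Akr1b8 rose by 0.61 (adjusted p = 1.25e-05), but was within 1.5-fold without shNC replicate 2 (0.58) or 3 (0.56) or shTrem2 replicate 1 (0.57) or 2 (0.56). Ptgds, the lipocalin-type prostaglandin D synthase, had 13 to 15 counts in shNC and 0 to 4 in shTrem2 (log2 fold change -2.66, adjusted p = 0.00187). Hpgds and Tbxas1, the hematopoietic prostaglandin D and thromboxane synthases, were not DEGs, with log2 fold changes of -0.19 and -0.28, and Ptgis, the prostacyclin synthase, was not tested.

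Of 6 tested genes of prostanoid breakdown and transport, Hpgd was the 1 DEG. It encodes the dehydrogenase that inactivates prostaglandins and had 3 to 8 counts in shNC and 11 to 16 in shTrem2 (log2 fold change 1.33, adjusted p = 0.0253). It was no longer a DEG without shNC replicate 1 (edgeR adjusted p = 0.109) or 2 (0.103) or shTrem2 replicate 2 (0.0671) or 3 (0.0770). With all libraries, Hpgd was also not a DEG in DESeq2 (adjusted p = 0.0829) or with no filter beyond 1 count (edgeR adjusted p = 0.0635). Of 9 other prostanoid receptor genes 2 were tested. Ptgir, the prostacyclin receptor, fell from 54.7, 53.2 and 53.1 CPM to 11.5, 13.0 and 9.26 CPM (log2 fold change -2.25, SE 0.0949, adjusted p = 6.39e-10), and Ptger1 was not a DEG, at 0.09. The shTrem2 libraries all lay below the shNC libraries for Ptgir and overlapped them for Ptger1.

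Among 10 tested leukotriene enzymes and receptors, 1 rose and 2 fell. Mgst2, a microsomal glutathione transferase that can make leukotriene C4, rose from 27.7, 26.2 and 29.7 CPM to 52.6, 58.9 and 52.2 CPM (log2 fold change 0.97, adjusted p = 9.88e-08). Ltb4r1, the high-affinity leukotriene B4 receptor, had 22 to 30 counts in shNC and 5 to 11 in shTrem2 (log2 fold change -1.83, adjusted p = 0.000955). Cyp4f13 fell, with a log2 fold change of -0.64 (adjusted p = 7.71e-05) and was within 1.5-fold without shTrem2 replicate 3, at -0.54. Lta4h, which makes leukotriene B4, was not a DEG, at -0.07. Among 4 tested genes of other lipoxygenases, epoxygenases and lipid mediator receptors, the epidermal-type lipoxygenase gene Aloxe3 fell by 2.80 on the log2 scale (adjusted p = 1.68e-05) from 33 to 45 counts to 4 to 9, and the lipid receptor gene Gpr18 fell by 1.97 on the log2 scale (adjusted p = 0.000323). Aloxe3 did not pass the test on log2(FPKM + 1), at -0.37 (limma adjusted p = 0.144).

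Of 29 tested components of EP2 and EP4 signalling, 2 rose and 1 fell. Adcy6, an adenylyl cyclase, rose by a log2 fold change of 0.73 (adjusted p = 7.17e-05), and the phosphodiesterase gene Pde8a rose by 0.59 (adjusted p = 0.000128), but was within 1.5-fold without shNC replicate 1 (0.58) or shTrem2 replicate 1 (0.54). Rapgef3, which encodes the cyclic AMP sensor Epac1, had 59 counts over the shNC libraries and 5 over the shTrem2 libraries, a depth-corrected ratio of 13.3 (95% exact interval 5.40 to 42.6, for counting error only; adjusted p = 3.15e-05).

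Of 12 tested cyclic AMP-responsive genes, 3 rose and 2 fell. Fosb rose from 0.931, 1.39 and 0.714 CPM to 73.1, 86.8 and 70.9 CPM (log2 fold change 6.24, adjusted p = 6.13e-12). Fos rose from 23.9, 24.3 and 23.1 CPM to 186, 192 and 165 CPM (log2 fold change 2.93, adjusted p = 5.03e-12), and the phosphatase gene Dusp1 by 2.22 (adjusted p = 1.66e-09). The clock gene Per1 fell by 1.32 on the log2 scale (adjusted p = 3.82e-08) and Gem, a small GTPase gene, fell by 0.90 on the log2 scale (adjusted p = 0.00815). Nr4a1 and Nr4a2 were not DEGs, at 0.13 and 0.10.

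All 32 genes listed as regulators of Ptgs2 transcription or mRNA were tested, and 6 rose and 3 fell, with a median of 0.20. Fos and Fosb, named above, belong to this list as well. The AP-1 gene Fosl1 fell from 15.4, 14.5 and 10.2 CPM to 3.28, 2.61 and 2.78 CPM (log2 fold change -2.20, adjusted p = 2.42e-07). Nfatc1 rose by 0.97 (adjusted p = 2.62e-09), and Zfp36l2, which encodes an RNA-binding protein of the ZFP36 family, rose by 0.72 (adjusted p = 7.39e-08). Zfp36l1 of the same family fell by 0.60 on the log2 scale, a 1.51-fold change (adjusted p = 2.78e-06). Cebpb and Rela, a C/EBP factor and an NF-kB subunit, were not DEGs, with log2 fold changes of 0.07 and 0.02, and neither was Zfp36, at -0.18. The part of these genes in the level of Ptgs2 was not tested.

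**Figure D3:**
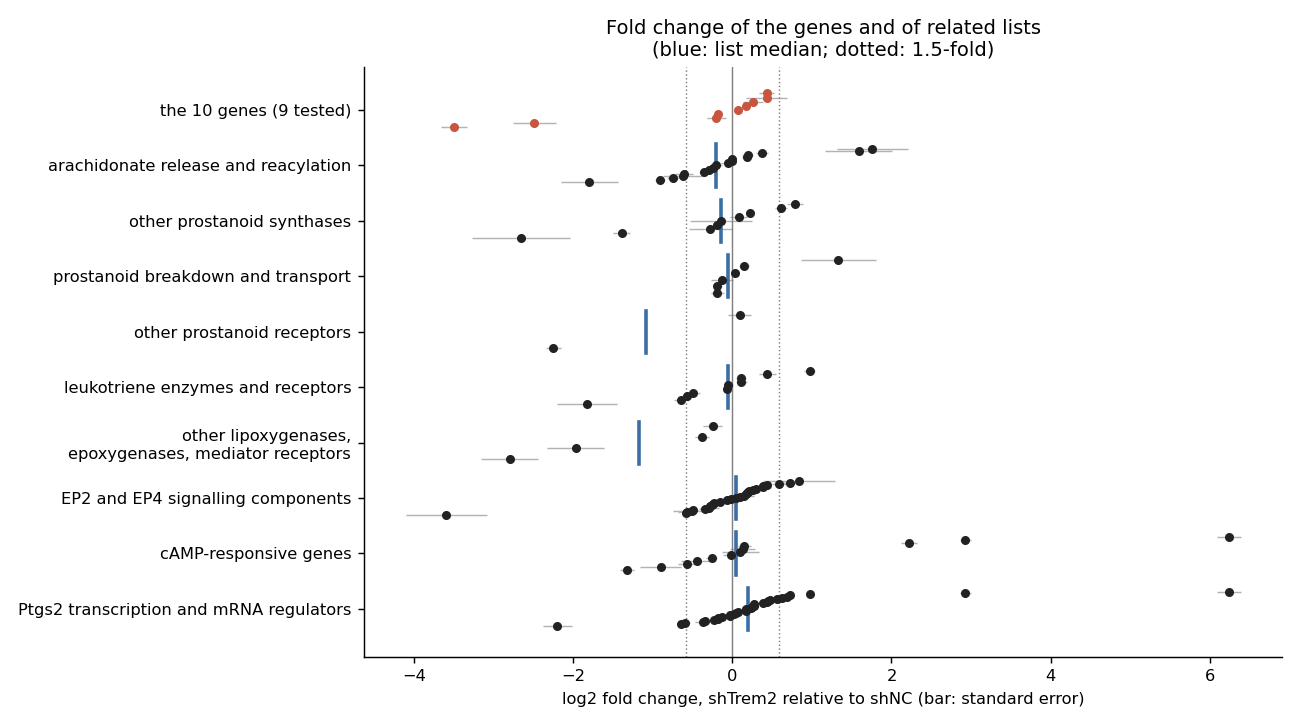
Log2 fold change of shTrem2 relative to shNC, with standard errors, for the 9 tested genes of the set (red) and the tested genes of each related list (black), with list medians in blue and 1.5-fold as dotted lines. Ptgs2 and Ptges lie apart from the other 7 genes of the set, and the list medians lie between -0.20 and 0.20 except for the other prostanoid receptors (-1.08, 2 genes) and the other lipoxygenases and lipid mediator receptors (-1.18, 4 genes).

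Ptgs2 and Pla2g4a are neighbours in the genome, with annotated starts 138.7 kb apart on RefSeq GRCm38.p6. Within 1000 kb of the Ptgs2 start, 13 genes had an annotated start and 5 were tested, both counts including Ptgs2 itself. Ptgs2os2, a long non-coding RNA gene 64.9 kb away that is also known as lincRNA-Cox2, had 34, 28 and 39 counts in shNC and 110, 93 and 74 in shTrem2, a log2 fold change of 1.31 (SE 0.230) that ran opposite to that of Ptgs2. Ptgs2os starts 157 bases from Ptgs2 on the other strand and had 7, 11 and 1 counts in shNC and 2, 3 and 8 in shTrem2, too few to test. These 2 non-coding genes were singled out after their values were seen. Tpr and Odr4, at 292.8 and 293.0 kb, had log2 fold changes of 0.44 and 0.15.

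**Figure D4:**
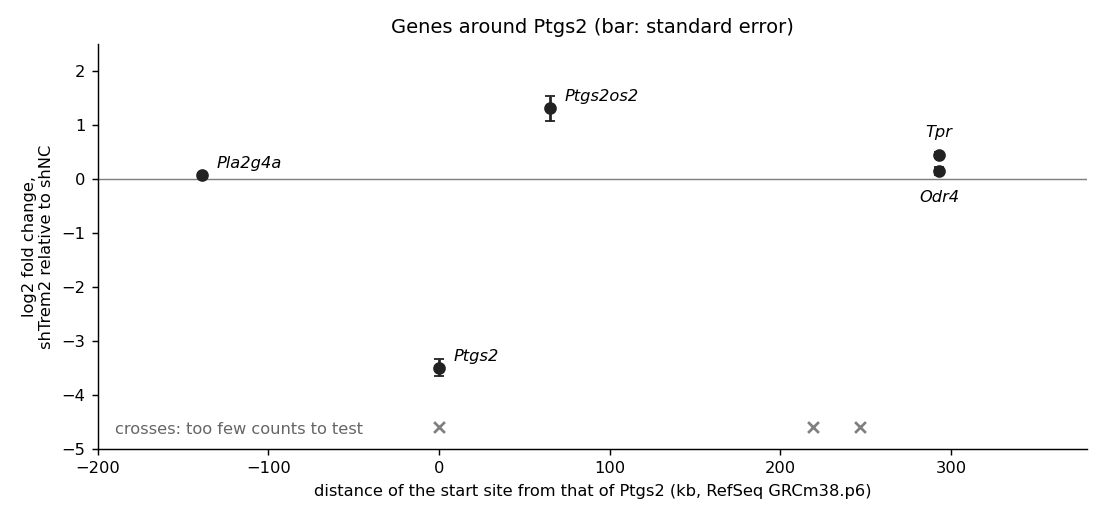
Log2 fold change, with standard errors, of the tested genes around Ptgs2 against the distance of their start from that of Ptgs2 in kb; crosses are genes with too few counts to test. Ptgs2 is the low point at -3.50, with Pla2g4a near 0 and Ptgs2os2 at 1.31.

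By the mean absolute difference of centred log2 CPM over the 6 libraries, computed with a prior count of 2, the genes nearest to Ptgs2 were Fendrr at 0.180, Urah at 0.191 and Septin1 at 0.215. In shNC they had 2.03 to 3.10, 0.604 to 1.06 and 3.57 to 6.58 CPM. In shTrem2 Fendrr had 0.0521 to 0.104 CPM, Septin1 had 0.208 to 0.522 CPM and Urah was at 0 in all libraries. At such levels the prior count sets much of the distance, and the fitted log2 fold changes of Fendrr and Septin1, -4.83 and -3.89, differed from the -3.50 of Ptgs2, so the nearness to Ptgs2 is a description of this scale only.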

How the data were processed

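Polyadenylated RNA from 6 RAW264.7 libraries was sequenced after preparation with a stranded kit. The submitters' processing notes name fastp, HISAT2, StringTie and the build GRCm39, with no versions or strand setting. The authors deposited estimated counts per transcript row and FPKM values per gene, the latter divided by transcript length and library depth. The deposited group-mean FPKM columns were not used for any value.

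Rows were summed per gene symbol and rounded, and rows with no gene name (0.908 to 1.12% of counts) were left out. With edgeR 4.0.16 in R 4.3.3, genes were filtered by filterByExpr, scaled by TMM and tested by the quasi-likelihood test with Benjamini-Hochberg adjustment. A DEG had an FDR under 0.05 and a fold change over 1.5. The edgeR steps were tested on simulated data. DESeq2 1.42.0, limma 3.58.1 and other scalings, filters and thresholds were alternatives.

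The genes and lists were chosen with earlier results of these data known. Named were the 10 genes, Trem2, up to 5 DEGs a list by size, other listed genes needed to show a step or a relative that went the other way, and the 3 genes nearest Ptgs2. The neighbours of Ptgs2 were added after the data were seen.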

Additional observations from a re-analysis of the deposited data

How the results depend on the processing

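The fall of Ptgs2 ranged from -3.70 to -3.27 (log2) and that of Ptges from -2.67 to -0.60 over 17 alternatives, and no result reversed. With log2(FPKM + 1), log2(FPKM + 0.1) or an effective length offset, 1 gene of the set was a DEG: Ptges then had log2 fold changes of -0.60, -1.16 and -1.11, still over 1.5-fold, with standard errors of 0.33, 0.615 and 0.451, and missed the FDR threshold. With no fold threshold, 5 genes of the set, 82 related genes and 7763 of all genes were called, and with a fold change over 2, 16 related genes and 1339 of all genes. Leaving out 1 library gave 2789 to 3105 DEGs in all, 2 in the set each time, 29 to 34 related genes, and a mean Ptgs2 share of 97.0 to 97.7% in shNC and 70.4 to 78.2% in shTrem2. In CPM that share was 98.7% and 83.4%. The log2 fold change of Trem2 was -2.11 to -0.77, the larger values with FPKM or the length offset. Of the related DEGs, Akr1b8 and Pde8a lie at the 1.5-fold limit and Hpgd near the FDR limit, and these and Cyp4f13 lost their calls when single libraries were left out. Hpgd also lost its call with DESeq2, with no filter beyond 1 count and with log2(FPKM + 1) (0.34). Akr1b8 also lost its call when scaled by library size only (0.57), with both FPKM pseudocounts (0.57 each) and with the effective length offset (0.56). Pde8a also lost its call with upper quartile scaling (0.57), library size only (0.56) and log2(FPKM + 1) (0.50). Pla2g4b and Aloxe3 lost their calls with both FPKM pseudocounts (-0.45 and -0.37 with log2(FPKM + 1)). Pla2g4b also lost its call with the effective length offset (-0.84, edgeR adjusted p = 0.151), and Aloxe3 kept its call there (-2.79). Pla2g4c (0.40) and Gem (-0.56) lost theirs only with log2(FPKM + 1). Same-numbered libraries did not deviate together over the genes tested (r = 0.00618, -0.00441 and 0.00657). With deviations from means of only 3 libraries, this cannot show whether they shared a culture or a day, which was not stated. A replicate block gave 2911 DEGs in all, 2 in the set and 32 related genes. Genes with few counts, such as Ptger2, are limited by depth.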
